A study of Mus musculus with 83 samples.

Results

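The 8 genes described here, Cd79a, Cd79b, Ms4a1, Cr2, Pax5, Fcer2a, Bank1 and Blk, are active in B cells and in the lymphoid follicles of the gut wall. They were taken by symbol from a table of 37764 genes, all 8 were found, and all 8 were among the 18325 genes that passed the filter on low counts. The study sequenced polyA RNA from the colon of 83 male C57BL/6J/Ukj mice, of which 16 were 3 months old, 16 were 9, 16 were 15, 17 were 24 and 18 were 28. Per the labels all mice were kept for aging alone, with no treatment or transgene named, and each RNA sample came from the proximal section of the colon of a different mouse. Libraries were made in 3 preparations with 4 to 7 mice of each age apiece, so age and preparation can be separated. The comparisons ask how the level of the 8 genes differed between ages, and how far mice of the same age differed from each other.

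B cells recognise antigen through a membrane immunoglobulin, which signals through the Cd79a and Cd79b chains and then through kinases such as Blk. Resting follicular B cells carry the complement receptor Cr2 (CD21) and the low affinity IgE receptor Fcer2a (CD23), and Cr2 is also made by follicular dendritic cells, the stromal cells that hold antigen in the follicle. In the colon, B cells gather in isolated lymphoid follicles and colonic patches, which lie scattered along the wall, while the plasma cells of the lamina propria have switched off Ms4a1 (CD20), Cr2 and the transcription factor Pax5.

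Total counts ranged from 23026370 to 75838290 per mouse, with a median of 35495123. The tissue carried its epithelial markers, with 6 epithelial genes summing to between 22578 and 28028 CPM (counts scaled to library size) at 28 months. The lowest epithelial sum at 15 months was 14020 CPM, and 5 smooth muscle genes summed to between 674 and 4262 CPM at 3 months. The pieces thus differed in make-up. The 8 B cell and follicle genes together had a median of 33.5 CPM at 3 months and 18.4 CPM at 28 months. In whole tissue, fewer B cells and less RNA per B cell cannot be told apart.

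Compared per length, as length-scaled TPM, the antigen receptor chains stood far above the other genes. The median level over the 83 mice was 17.2 TPM for Cd79a and 10.7 TPM for Cd79b, against 1.58 TPM for Ms4a1, 1.26 for Blk, 0.759 for Bank1, 0.554 for Pax5, 0.448 for Cr2 and 0.394 for Fcer2a. Cd79a was above Cd79b and Cd79b above Ms4a1 in every mouse, while each later pair of neighbours changed places in some mice. The counts behind these levels were small for the rarer genes, with a median of 15 read pairs for Fcer2a and 39 for Blk, and 298 for Cd79a. Fcer2a had no read pair in 6 mice, 4 of them 28 months old, where 3 counts would have been between 0.052 and 0.116 CPM.

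Ms4a1, the surface protein CD20 and here the reference for B cells before the plasma cell stage, varied widely among the youngest mice. At 3 months it ranged from 0.645 to 17.3 CPM with a median of 5.90. The widest gap between neighbouring mice (0.83 on the log2 scale) lay between 8 mice at or below 4.23 CPM and 8 at or above 7.57. At 9 months the widest gap was 1.06, and whether such gaps mark separate sets of mice was not tested. Where within the proximal section each piece lay is not in the labels, and its part in this spread was not tested. At 9 months the lowest, median and highest mouse had 1.26, 2.41 and 13.3 CPM, at 15 months 1.22, 3.57 and 11.7, and at 24 months 1.14, 4.25 and 14.3. At 28 months they had 0.836, 2.45 and 5.63 CPM. The oldest group therefore lacked high mice, with none of the 18 above the median of the 3-month mice. Above it lay 2 of 16 mice at 9 months, 3 of 16 at 15 months and 5 of 17 at 24 months. The low ends of all 5 ages were close together.

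Cr2, the complement receptor CD21, also varied widely at 3 months, with 0.234, 3.42 and 11.2 CPM in the lowest, median and highest mouse. The 3 values were 0.216, 1.49 and 9.24 CPM at 9 months, 0.547, 1.57 and 6.26 at 15 months, and 0.237, 1.23 and 5.50 at 24 months. At 28 months Cr2 ranged from 0.104 to 1.34 CPM with a median of 0.472. Even the highest 28-month mouse was below 10 of 16 mice at 3 months, 9 of 16 of the 9-month mice, 9 of 16 of the 15-month mice and 8 of 17 of the 24-month mice.

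Fcer2a, the IgE receptor CD23 of resting follicular B cells, had the lowest median count over all mice and the widest spread within age and preparation of the 8 genes. It ranged from 0.123 to 7.46 CPM at 3 months with a median of 1.95. In the 4 later ages the median was 0.548, 0.509, 0.390 and 0.181 CPM in order of age, and the highest mouse had 4.23, 3.85, 2.55 and 0.896 CPM. The ages overlapped at the low end, where 1 mouse of 9 months, 1 of 24 months and 4 of 28 months had no count, and separated at the high end.

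The sequence before the start of Cr2 is shown beside those of Fcer2a and Cd79a, the genes with the largest and the smallest fall at 28 against 3 months, from RefSeq on GRCm38.p6. Of the 8 genes, 5 had an entry (Cd79a, Cr2, Pax5, Fcer2a and Bank1). Capitals mark matches to TGGGAA on either strand, the core of the site bound by RBPJ, the factor through which Notch signalling acts in B cells. Cr2 (ENSMUSG00000026616, chromosome 1, 195136811 to 195176716, minus strand, 26 merged exons) is preceded by chr1:195176720-195176969, where the match runs from 220 to 215 bases before the start. Fcer2a (ENSMUSG00000005540, chromosome 8, 3681737 to 3694175, minus strand) is preceded by chr8:3694176-3694424 at the outermost of its 3 listed starts, and Cd79a (ENSMUSG00000003379, chromosome 7, 24897381 to 24902197, plus strand) by chr7:24897247-24897380, of which only the bases outside annotated exons are printed.
Cr2: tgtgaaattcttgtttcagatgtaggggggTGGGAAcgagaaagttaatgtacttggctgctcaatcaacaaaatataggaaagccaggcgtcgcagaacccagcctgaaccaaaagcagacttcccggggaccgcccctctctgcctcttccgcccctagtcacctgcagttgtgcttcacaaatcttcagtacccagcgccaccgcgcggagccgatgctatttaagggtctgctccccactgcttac
Fcer2a: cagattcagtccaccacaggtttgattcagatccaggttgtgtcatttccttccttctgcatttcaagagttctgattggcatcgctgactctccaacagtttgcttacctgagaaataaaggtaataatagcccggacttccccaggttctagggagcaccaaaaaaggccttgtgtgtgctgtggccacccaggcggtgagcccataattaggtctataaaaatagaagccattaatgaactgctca
Cd79a: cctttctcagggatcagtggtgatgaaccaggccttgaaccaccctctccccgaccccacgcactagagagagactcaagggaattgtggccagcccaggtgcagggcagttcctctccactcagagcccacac

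The same 250-base windows were searched on both strands for the octamer ATTTGCAT, for TGGGAA, for the EBF palindrome (TCCC, any 2 bases, GGGA), which can share bases with TGGGAA, and for the PU.1 site GAGGAAGT. Over 32851 promoter windows, 1.6% held the octamer, 21.6% TGGGAA, 0.779% the EBF palindrome and 2.44% the PU.1 site. Among the 5 genes, matches were found only for TGGGAA, in the Cr2 window and in the windows of the 2 inner starts of Fcer2a. A match is a description of these letters and not a site of binding.

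Pax5, the factor that holds cells in the B lineage, had 0.239, 4.34 and 13 CPM in the lowest, median and highest mouse at 3 months. Its later medians were 1.52, 1.66, 2.18 and 1.04 CPM in order of age, and the highest 28-month mouse reached 2.62. Reads of antisense genes that overlap Pax5 exons were kept apart, since pairs were counted by strand. Blk, the Src family kinase, had medians of 1.69, 0.937, 0.911, 1.63 and 0.848 CPM in order of age, and Bank1, a scaffold of receptor signalling, 2.28, 1.73, 1.92, 2.25 and 1.33. Cd79a had medians of 8.08, 7.52, 8.34, 9.29 and 7.01 CPM, and Cd79b 5.62, 4.29, 5.42, 5.86 and 4.38. For these 4 genes the 24-month median was near the 3-month median, and the ages overlapped over most of their range, though the highest 28-month mouse was below the highest mouse of every other age.

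**Figure D1:**
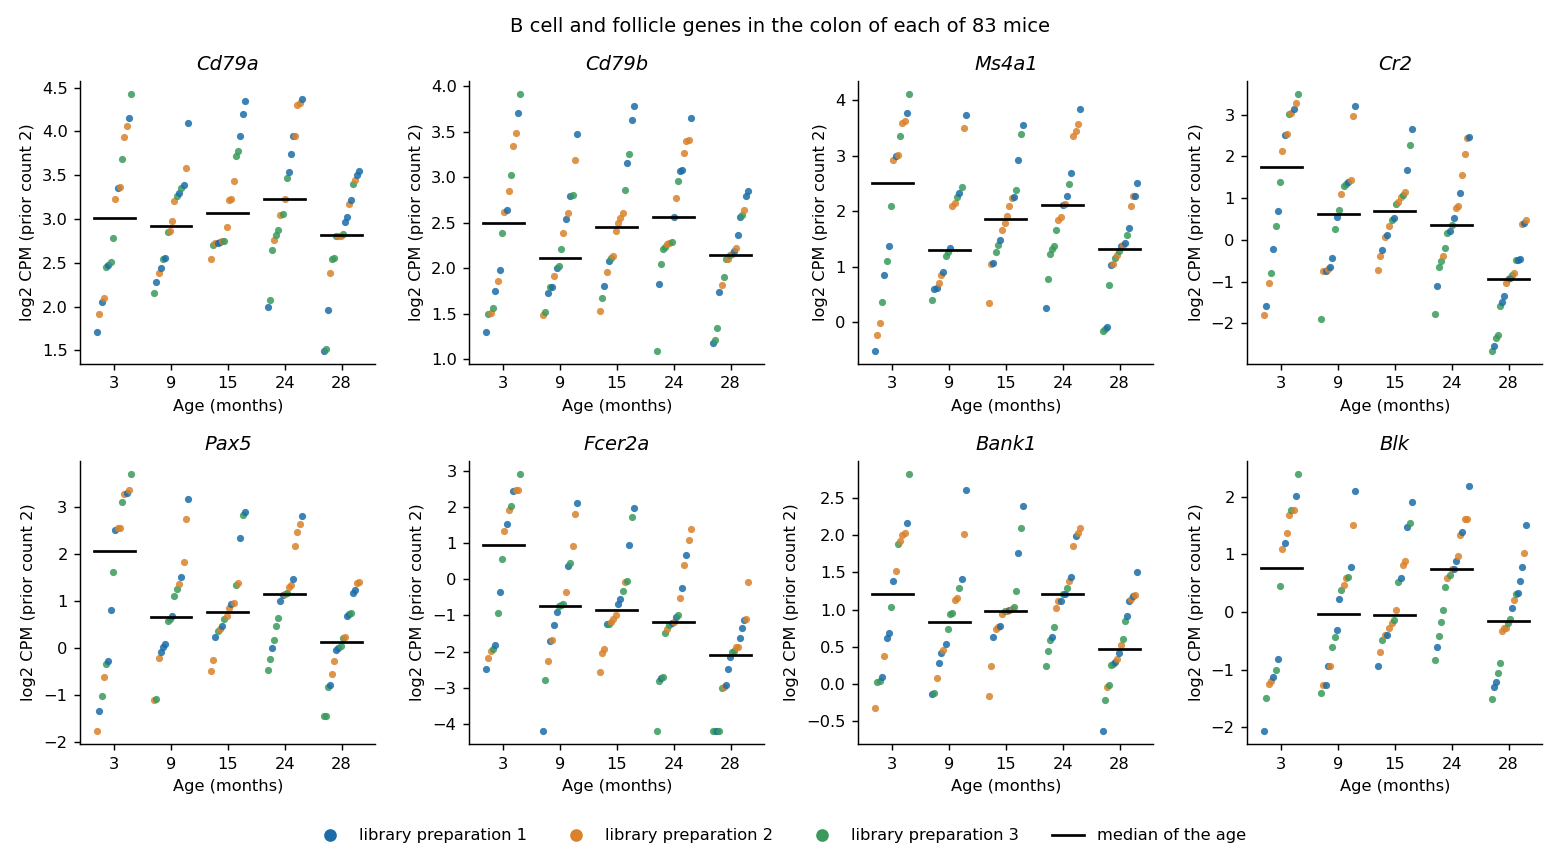
Level of each of the 8 genes in every mouse by age, as log2 CPM with a prior count of 2, coloured by library preparation. Each dot is a mouse, sorted by level within its age, and the black line is the median. In each panel the SD between mice is largest at 3 months. At 28 months no mouse is above the 3-month median for Ms4a1, Cr2, Pax5 and Fcer2a, while 6, 5, 1 and 2 of 18 are for Cd79a, Cd79b, Bank1 and Blk.

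Between 3 and 28 months, 7 of the 8 genes were called lower and none higher at an adjusted p-value below 0.1, against 25.9% of all 18325 tested genes called lower and 23.5% called higher. The median log2 change of the 8 was -1.12, beside -0.01 over all tested genes. On the log2 scale Fcer2a fell by 3.59 (standard error 0.56, 12.1-fold lower) and Cr2 by 3.06 (standard error 0.46, 8.32-fold lower), with Benjamini-Hochberg adjusted p = 2.24e-07 and 9.78e-08 in the quasi-likelihood test of edgeR. Pax5 fell by 1.97 (standard error 0.41, adjusted p = 7.32e-05) and Ms4a1 by 1.31 (standard error 0.36, adjusted p = 0.00216), in edgeR's test. The receptor signalling genes moved less: Blk fell by 0.93 (adjusted p = 0.0268), Bank1 by 0.82 (adjusted p = 0.00522) and Cd79b by 0.55 (adjusted p = 0.0401). Cd79a had a log2 change of -0.39 with a 95% interval from -0.84 to 0.06 (adjusted p = 0.163), which was not past the threshold.

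These model changes weigh the mean level of each age, to which the high mice contribute most. In differences of mean log2 CPM every mouse counts alike. Within preparations 1, 2 and 3 they were -2.13, -2.25 and -3.79 for Fcer2a, -1.88, -1.73 and -3.19 for Cr2, -0.58, -1.12 and -1.87 for Pax5, and -0.23, -0.55 and -1.48 for Ms4a1. For Bank1 they were -0.31, -0.62 and -0.87, and for Cd79b -0.04, -0.42 and -0.60. All these were negative, with the largest size in preparation 3, while Blk (0.26, -0.51 and -0.99) and Cd79a (0.07, -0.18 and -0.56) were positive in preparation 1. With limma-voom and sample weights, which work on the log scale, Cr2 (log2 change -2.23, adjusted p = 0.000501) and Fcer2a (-2.81, adjusted p = 0.000876) were called at 28 against 3 months and the other 6 were not. The calls of Blk and Cd79b rested on the highest 3-month mouse (replicate 14): without it their adjusted p was 0.101 and 0.158 in edgeR's test, and 5 of the 8 genes were called.

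The changes between neighbouring ages follow, and whether they depart from a steady trend was not tested. Between 3 and 9 months all 8 log2 changes were below 0, with a median of -0.70, but Fcer2a alone was called (log2 change -1.36, standard error 0.50, adjusted p = 0.0934 in edgeR's test), 1 of 8 where 5.05% of all genes were called lower. The mean log2 CPM of Fcer2a differed by -0.79, -0.98 and -1.42 within preparations 1, 2 and 3. The call was lost in 22 of the 83 fits that each left out 1 mouse and under most other settings, and DESeq2 called Pax5 in its place. From 9 to 15 months none of the 8 was called in either direction (0.431% of all genes), and none had an unadjusted p under 0.05 in edgeR. DESeq2 and limma-voom also called 0. From 15 to 24 months none was called (13.5% of all genes) and none had an unadjusted p under 0.05 in edgeR. There DESeq2 called 0 and limma-voom called Blk, higher by 0.75.

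Between 24 and 28 months, 7 of the 8 genes were called lower, where 6.01% of all genes were. Cr2 fell by 1.75 (standard error 0.46, 3.37-fold lower, adjusted p = 0.0105 in the edgeR quasi-likelihood fit). The other 6 lay close to the threshold, with adjusted p from 0.0637 to 0.0985: Fcer2a fell by 1.64, Pax5 by 1.06, Ms4a1 by 1.01, Bank1 by 0.69, Cd79a by 0.58 and Cd79b by 0.58. Blk had a log2 change of -0.81 (adjusted p = 0.142). The mean log2 CPM of each of the 8 was lower at 28 months within all 3 preparations. With limma-voom, 2 of the 8 were called (Cr2 and Bank1), and leaving out single mice brought the count down to 1. The call of Pax5 was lost in 43 of 83 such fits, that of Cd79a in 25 and that of Cd79b in 21, while Cr2 was called in all 83. Ms4a1 lost its call without any of 4 mice of 24 months (replicates 3, 4, 8 and 14), 3 of which were the mice with all 8 genes high.

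The remaining pairs set the same values beside each other in another order and share their mice with the pairs above. At 24 against 3 months 3 of the 8 were called lower (17.8% of all genes): Fcer2a by 1.95 (adjusted p = 0.00233), Cr2 by 1.31 (adjusted p = 0.0164) and Pax5 by 0.91 (adjusted p = 0.0833), in edgeR's test. Limma-voom called 0 there and gave Pax5 a log2 change of 0.12. Within preparations 1, 2 and 3 the differences of mean log2 CPM were -0.78, -0.71 and -2.77 for Fcer2a and -0.26, -0.15 and -1.92 for Cr2, while for Pax5 they were 0.28, 0.28 and -1.13, so the direction of Pax5 did not hold within 2 of the 3 preparations. Cd79a and Cd79b had positive log2 changes there, 0.19 and 0.02. At 28 against 9 months the same 3 genes were called lower (20.0% of all genes), with Fcer2a at -2.23, Cr2 at -2.09 and Pax5 at -0.90. At 28 against 15 months 6 of the 8 were called lower (22.2% of all genes), all but Cd79a and Blk, and limma-voom called 2, Cr2 and Fcer2a. At 15 against 3 months none was called (7.75% of all genes), though Cr2, Pax5 and Fcer2a had unadjusted p under 0.05 in edgeR, and DESeq2 and limma-voom called 0. At 24 against 9 months none was called (15.5% of all genes) and none had an unadjusted p under 0.05. DESeq2 called 0 there, while limma-voom called Cd79b and Blk, higher by 0.53 and 0.96.

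Over the 5 ages together, 6 of the 8 genes differed (54.9% of all genes did), all but Cd79a (adjusted p = 0.140) and Blk (adjusted p = 0.102) in edgeR's test. The call of Cd79b (adjusted p = 0.0950) was lost in 43 of 83 fits without 1 mouse, Blk was called in 22 of them, and limma-voom called 2 of the 8, Cr2 and Fcer2a. As a trend, 5 of the 8 were called lower with age (27.4% of all genes). Per 12 months, the log2 level of Fcer2a fell by 1.33 (standard error 0.22), Cr2 by 1.05 (standard error 0.19), Pax5 by 0.65, Ms4a1 by 0.35 and Bank1 by 0.22. Cr2 and Fcer2a were also called by limma-voom, at -0.67 and -0.93 per 12 months. The other 3 were not, and the limma-voom slope of Ms4a1 was 0.021, the opposite sign.

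**Figure D2:**
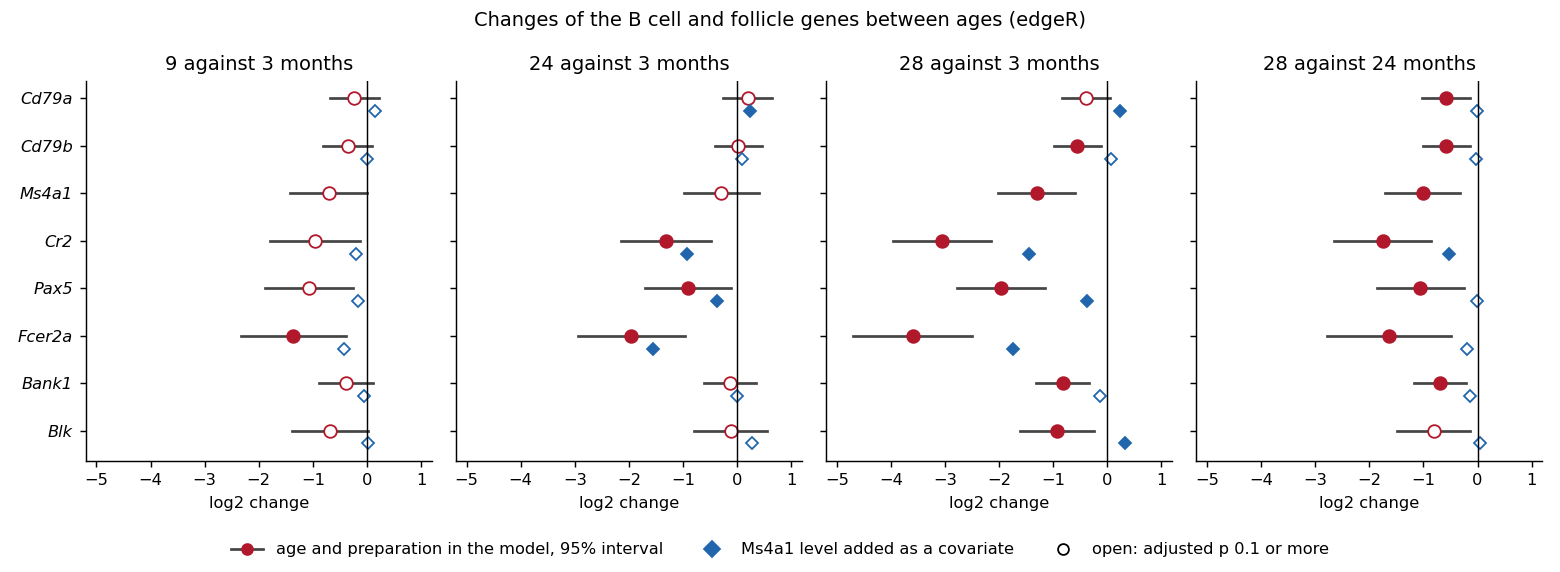
Log2 change of each gene at 4 pairs of ages in edgeR, with the 95% interval, from a model of age and preparation (circles) and with the Ms4a1 level added as a covariate (diamonds, without interval). Filled symbols have an adjusted p below 0.1. At 28 against 3 months the circles of Cr2 and Fcer2a lie at -3.06 and -3.59 and their diamonds at -1.45 and -1.75, while the diamonds of Cd79b and Bank1 lie near 0.

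The spread between mice was the other leading feature of the 8 genes. Within an age and preparation the SD of log2 CPM was 0.66 for Cd79b, 0.69 for Cd79a, 0.71 for Bank1, 1.04 for Blk, 1.09 for Ms4a1, 1.25 for Pax5, 1.31 for Cr2 and 1.53 for Fcer2a, beside a median of 0.20 over all tested genes. The biological coefficient of variation, edgeR's estimate of the spread beyond counting error, was between 0.440 and 1.04 for the 8 genes and had a median of 0.126 over all genes. Only 88 of 18325 genes had a higher value than Fcer2a, and 487 had a higher value than Cd79b, the least variable of the 8. The 8 genes exceeded the trend at their own abundance by 1.76-fold for Bank1 up to 3.72-fold for Fcer2a.

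**Figure D3:**
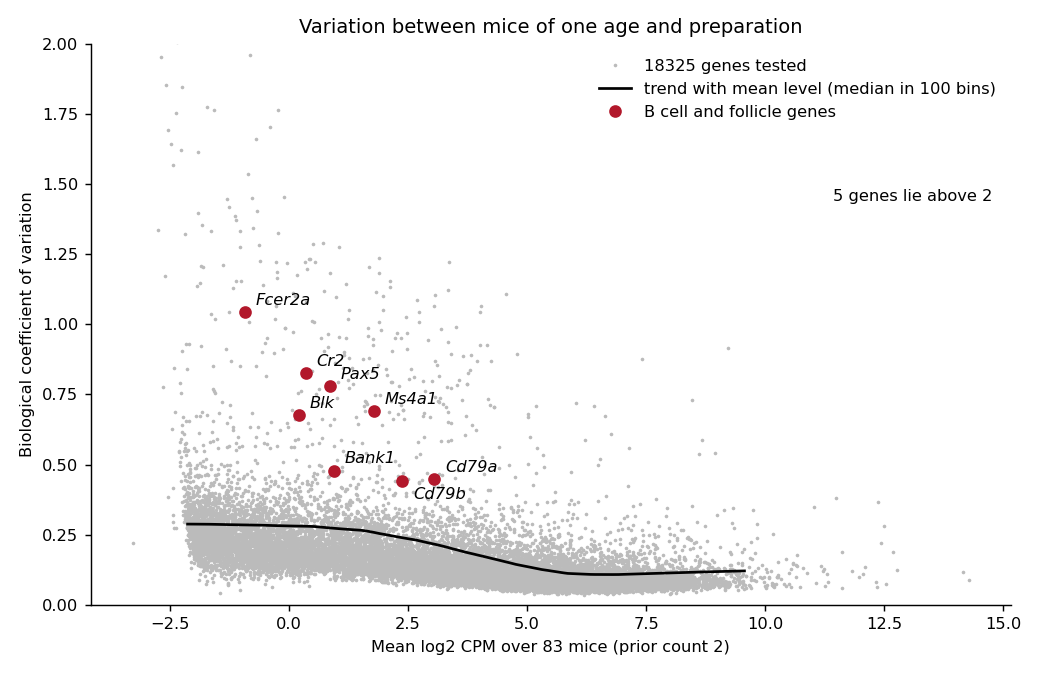
Biological coefficient of variation of 18325 genes against mean log2 CPM over 83 mice, with the 8 B cell and follicle genes in red and the trend with mean level as a line. The 8 genes lie between 0.440 and 1.04, all above the trend at their level.

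High levels of the 8 genes tended to fall in the same mice. The first principal component of the 8 genes, after removal of age and preparation means, held 90.8% of their variance, and the 28 pairs of genes had correlations between 0.83 and 0.96 over the 83 mice, with a median of 0.89. In 8 mice every gene was above 2 times its median over all mice, in 19 mice some genes but not all were, and in 56 mice none was. Of the 8 mice with every gene high, 3 were 3 months old, 1 was 9, 1 was 15, 3 were 24 and none was 28, and 4, 3 and 1 of them came from preparations 1, 2 and 3. At 3 months replicate 14 was the highest mouse in CPM for all 8 genes, and at 9 months replicate 4 was. At 15 months replicate 7 was highest for all but Cd79a (replicate 15), and at 24 months replicate 4 for all but Fcer2a and Bank1 (replicate 8). At 28 months the highest mouse differed between genes: replicate 11 for Cd79b, Ms4a1 and Bank1, replicate 10 for Cr2, Pax5 and Fcer2a, replicate 18 for Cd79a and replicate 2 for Blk. Age explained 7.22% to 11.3% of the sum of squares of log2 CPM for 6 of the genes, near the 11.9% of the median gene, but 26.7% for Cr2 and 26.2% for Fcer2a. The preparation explained 1.45% to 4.36%.

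**Figure D4:**
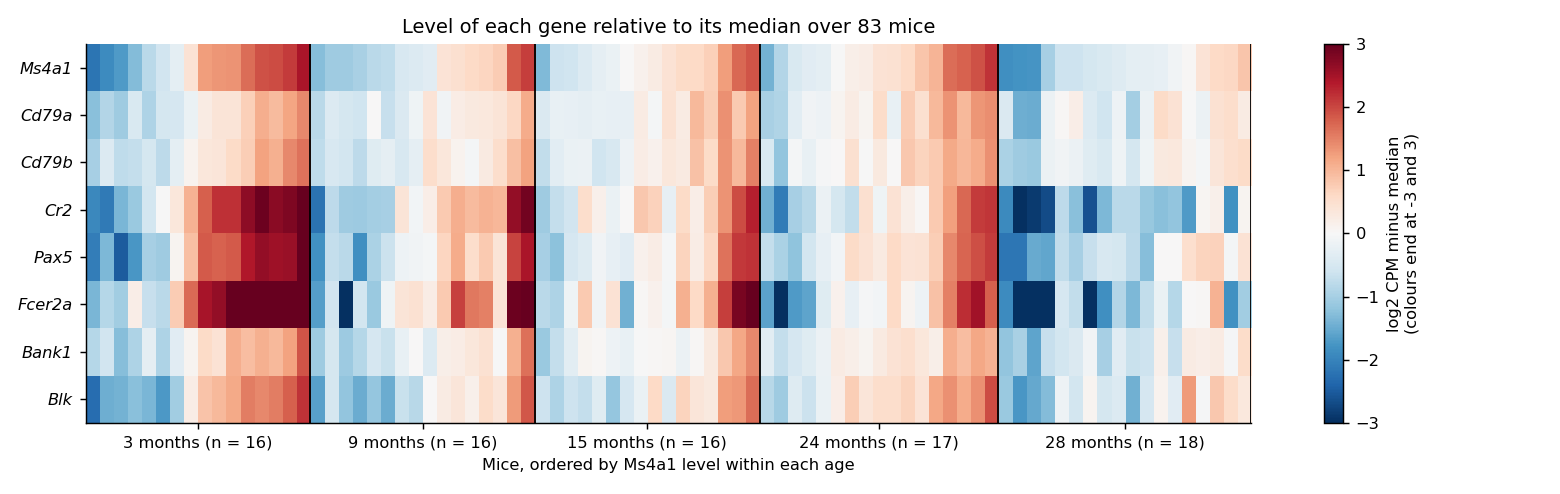
Level of the 8 genes in each mouse, as log2 CPM minus the median of the gene over 83 mice, with mice ordered by Ms4a1 within each age and colours ending at -3 and 3. Red columns run through all 8 genes, and at 28 months Cr2 and Fcer2a are below their median in most mice, with 3 and 2 of 18 above it.

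Cr2 and Fcer2a had the largest changes of the 8, and their level was also followed against Ms4a1. Relative to Ms4a1 in the same mouse, log2 Cr2 had medians of -0.70, -0.99, -1.28, -1.75 and -2.21 from the youngest to the oldest age. At 3 months this relative level ran from -1.57 to -0.32 and at 28 months from -3.76 to -1.42, so that the ages touched only at their ends. For Fcer2a the medians were -1.51, -2.20, -2.38, -3.07 and -3.43, and for Pax5 -0.47, -0.73, -0.92, -1.01 and -1.09. Cd79a, Cd79b, Bank1 and Blk did not decline against Ms4a1, with medians of 0.58 at 3 months and 1.48 at 28 months for Cd79a, and -1.74 and -1.43 for Blk.

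With the log2 CPM of Ms4a1 added to the edgeR model, a step chosen after the values were seen, Cr2 was lower at 28 than at 3 months by 1.45 on the log2 scale (adjusted p = 1.47e-11) and Fcer2a by 1.75 (adjusted p = 2.04e-07). In the same model and comparison, Pax5 was lower by 0.38 (adjusted p = 0.0135), and Cd79b (0.06, adjusted p = 0.615) and Bank1 (-0.14, adjusted p = 0.276) were not called. Cd79a (0.24, adjusted p = 0.0695) and Blk (0.32, adjusted p = 0.0641) were called higher, the opposite of their sign without the covariate. Fcer2a and Cr2 were also called lower in this model at 24 against 15 months, by 0.85 and 0.54, where neither was called without it. Ms4a1 was itself low in the mice that had little of the other genes, so these values describe the level at an equal Ms4a1 level and not a level per cell. Whether they reflect B cells or follicular dendritic cells, both of which make Cr2, was not tested.

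Of 30 other B cell genes on a list, all tested, 14 were called lower and 4 higher at 28 against 3 months. Of all tested genes, 25.9% were called lower and 23.5% higher there. The median log2 change of the list was -0.18. In the list counts that follow, fell and rose mean called lower and higher. The largest changes were those of Ighd, the constant region of the IgD of naive B cells, which fell by 2.83 (adjusted p = 1.51e-06), and of Fcmr, the IgM Fc receptor, by 2.54 (adjusted p = 1.81e-05), in edgeR's test. Ighd had medians of 9.13 CPM at 3 months and 1.40 CPM at 28 months. The 4 that rose, named after their values were seen, were Fcrl5 (1.11), Ighm (0.61), Pou2af1 (0.36) and Ebf1 (0.26). Fcrl5 was near the floor, with medians of 0.059 CPM at 3 months and 0.157 at 28 months. It had no count in 3 mice of 3 months and 2 of 28 months. Ighm is also made by IgM plasma cells, and Ebf1 also by stromal and fat cells.

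Of 9 tested germinal center genes, 5 fell and 1 rose at 28 against 3 months. Among them, Rgs13 fell by 0.69 (adjusted p = 1.75e-08) and Gcsam by 0.56 (adjusted p = 0.00450), in edgeR's test. The colon's tuft cells also express Rgs13. Of 11 tested genes of follicle and lymphoid stroma, 4 rose and 2 fell, with a median of 0.05, beside the 23.5% and 25.9% of all genes called higher and lower. Cxcl13, the chemokine that draws B cells into follicles, rose by 1.15 (standard error 0.13, adjusted p = 2.96e-11), from a median of 7.25 CPM at 3 months to 16.8 at 28 months, where Ms4a1 and Cr2 fell. Ltb, the lymphotoxin chain made by lymphocytes, fell by 0.42, and Tnfsf13b, the B cell survival factor BAFF, rose by 0.33.

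The follicle-associated epithelium list had 1 of 8 genes higher at 28 against 3 months (Tnfaip2, by 0.37) and none lower, but 5 of 8 were higher at 24 against 3 months, where 16.7% of all genes were, and 4 of 8 were lower at 28 against 24 months. Of 10 plasma cell genes, 3 rose (Prdm1 by 0.48, Irf4 by 0.47, Igkc by 0.42) and 1 fell (Xbp1, by 0.12, named after its value was seen), but the list was higher in between. Its summed CPM had medians of 5102, 6279, 6750, 7769 and 5902 in order of age. At 24 against 3 months 7 of the 10 plasma cell genes rose and 1 fell, and at 28 against 24 months 3 fell and none rose. Of 11 T cell genes 5 rose, led by Il7r (1.24), Cd8b1 (0.66) and Cd5 (0.45). From 3 to 28 months the median went from 3.65 to 8.20 CPM for Il7r, 1.01 to 1.40 for Cd8b1 and 1.84 to 2.03 for Cd5. The highest 28-month mouse had 6.78 CPM of Cd8b1, and the highest for Cd5 had 6.42. At 28 against 24 months, where 6.01% of all genes fell, 9 of the 30 other B cell genes, 2 of 9 germinal center genes and 1 of 11 stroma genes fell and none of them rose. In the lists of other cell types at 28 against 3 months, where 23.5% of all genes rose and 25.9% fell, 6 of 7 macrophage genes and 4 of 5 endothelial genes rose, 3 of 6 epithelial genes fell, 1 of 5 fat genes rose, and none of 5 smooth muscle genes was called (3 of the 5 were higher at 24 against 3 months). None of these 5 lists had a gene called at 28 against 24 months. Their part in the fall of the 8 genes was not tested. With the smooth muscle level as a covariate, 7 of the 8 were called at 28 against 3 months. At 28 against 24 months 4 of the 8 were, down from 7. Most of those 7 calls lay close to the threshold, so this count does not tell whether the falls were smaller.

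Over the 83 mice, Ms4a1 went with the other 7 genes and with the follicle lists. After removal of age and preparation means, Pearson's r of Ms4a1 with the other 7 ran from 0.89 (Fcer2a and Cd79a) to 0.96 (Pax5), and Spearman's rho from 0.88 to 0.96, each with a permutation p of 1e-05, the smallest that 100000 resamples can give (adjusted p = 1.5e-05 over 18 relations). Within the 28-month mice, whose Ms4a1 spanned the narrowest range, r was lower for several genes: 0.55 for Fcer2a (adjusted p = 0.0244 by permutation), 0.68 for Cr2, 0.72 for Cd79a, 0.75 for Blk, 0.84 for Bank1, 0.88 for Pax5 and 0.90 for Cd79b. Whether these differ from the other ages was not tested. For the mean of the other B cell genes r was 0.95 and rho 0.96, for germinal center genes 0.83 and 0.85, for stroma 0.78 and 0.78, and for follicle-associated epithelium 0.73 and 0.75, with the same p. Plasma cell genes (r = 0.38, rho = 0.42, adjusted p = 0.000665 by permutation) and T cell genes (r = 0.49, rho = 0.57) had lower values over all mice, and epithelial genes went the other way (r = -0.30, rho = -0.32, adjusted p = 0.00631 by permutation). Macrophage (r = 0.16), smooth muscle (0.07), fat (-0.13) and endothelial genes (-0.00) had adjusted p between 0.186 and 0.991 by permutation. The lists share libraries and depth with Ms4a1, and some of their genes are expressed by B cells.

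Within preparations 1, 2 and 3, r of Ms4a1 was 0.85, 0.78 and 0.92 with germinal center genes, 0.87, 0.76 and 0.76 with stroma, and 0.89, 0.69 and 0.73 with follicle-associated epithelium. It was 0.52, 0.08 and 0.51 with plasma cell genes, 0.70, 0.46 and 0.44 with T cell genes, and -0.35, 0.04 and -0.55 with epithelial genes. The relation to plasma cell and epithelial genes thus did not hold in preparation 2. By age, r with plasma cell genes was 0.86 within 24 months (adjusted p = 2e-05 by permutation), near the 0.88 of germinal center genes, and -0.20, 0.26, 0.57 and 0.55 within 3, 9, 15 and 28 months. With T cell genes r was 0.74, 0.73 and 0.78 within 3, 9 and 15 months and 0.35 and 0.27 within 24 and 28 months (adjusted p = 0.190 and 0.315 by permutation). With smooth muscle genes r was 0.61 in preparation 3 and 0.70 within 24 months, and with macrophage genes 0.49 in preparation 3, and 0.54 and 0.58 within 24 and 28 months, all with adjusted p from 0.00136 to 0.0321 by permutation. Without the 2 mice farthest from the median of Ms4a1, r with the other 7 genes was 0.87 to 0.95, with plasma cell genes 0.37 and with epithelial genes -0.35.

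**Figure D5:**
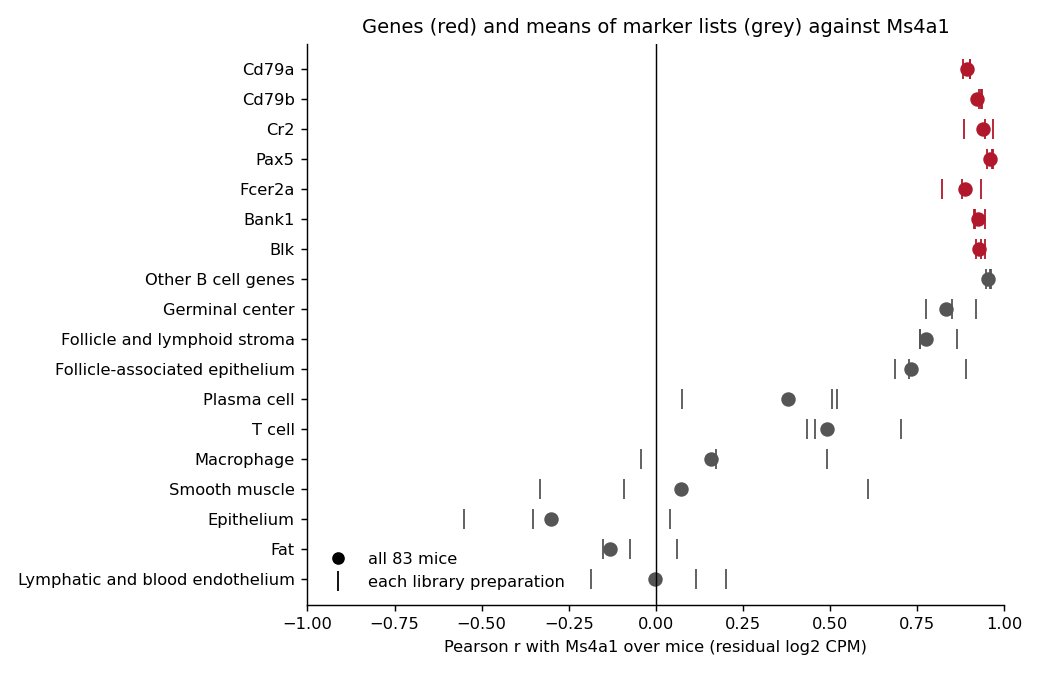
Pearson's r of Ms4a1 with the other 7 genes (red) and with the mean of 11 marker lists (grey), over 83 mice after removal of age and preparation means (dots) and within each preparation (ticks). Over all mice the dots of the B cell and follicle lists lie between 0.73 and 0.95 and those of the last 5 lists between -0.30 and 0.16, while the ticks of smooth muscle and macrophage genes reach 0.61 and 0.49 in preparation 3.

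Among the 10 genes whose pattern was most like the mean of the 8, by Pearson's r over the 83 mice after removal of age and preparation means, were H2-Ob (0.96), Cd22 (0.95), Fcmr (0.95), H2-Eb2 (0.95), Fcrl1 (0.95), Chst3 (0.95), Siglecg (0.95), Cxcr5 (0.94) and Tnfrsf13c (0.93). The median r over the 18317 other genes was -0.02. Among the 50 most like genes, 1 was an immunoglobulin gene. The 9 genes named here were all called lower at 28 against 3 months in edgeR's test, with log2 changes from -2.54 for Fcmr to -0.76 for H2-Eb2. Of all tested genes 25.9% were called lower there. The 9 were picked by likeness in these same data, and not all of the 50 were called. Cd180, named after its value was seen, had a log2 change of -0.05 (adjusted p = 0.836 in the same test).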

How the data were processed

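The authors deposited raw read pair counts per Ensembl gene. Reads were trimmed with cutadapt (2.8) and mapped with HISAT2 (2.1.0) to GRCm38, and pairs were counted by strand with featureCounts of Subread (2.0.1). Symbols were found for 37612 of 37764 genes. Age and library preparation came from the labels. Genes were filtered with filterByExpr by age, scaled by TMM and fitted with edgeR's quasi-likelihood F-test (4.0.16) on age and preparation in R 4.3.3, for 10 pairs of ages, any age and a slope per 12 months. Benjamini-Hochberg adjustment ran over all 18325 tested genes, with a threshold of 0.1. CPM used TMM library sizes, log2 CPM a prior count of 2, and TPM merged exon lengths. DESeq2 (1.42.0) and limma-voom (3.58.1) were alternatives, and the scripts were tested on simulated data. The members and gene lists were chosen with earlier results of these data known. The 8 genes, up to 3 genes of each list by size of change at 28 against 3 months, and the 10 genes most like the 8 were to be named, but some of these genes are not reported here. Libraries of the same age differed by at least 11.7 times the counting noise, so none repeated another of its age. Libraries of different ages were not compared in this way.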

Additional observations from a re-analysis of the deposited data

How the results depend on the processing

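The count of the 8 genes called between 28 and 3 months was 7 and stayed between 5 and 8 when single mice were left out, but was 2 with limma-voom. Cr2 and Fcer2a were called lower at 28 against 3 months in each of these fits. The count at 28 against 24 months was less stable: from 7 it went to 4 with DESeq2 size factors, with robust empirical Bayes or with the smooth muscle level as a covariate, to 2 with limma-voom, to 1 at an adjusted p below 0.05, without a filter on low counts or with the Ms4a1 covariate, and between 1 and 8 when single mice were left out. The count of 1 at 9 against 3 months went to 0 at an adjusted p below 0.05, without a filter, without the batch term, with robust empirical Bayes, with the Ms4a1 covariate, with only the 2 ages compared and with limma-voom, and lay between 0 and 3 when single mice were left out. At 15 against 3 months 0 became 1 without the batch term, with the smooth muscle covariate and with the Ms4a1 covariate, and 0 to 3 without single mice. At 24 against 3 months 3 became 0 with limma-voom, and 2 to 3 without single mice. At 24 against 15 months 0 became 2 with the Ms4a1 covariate and 1 with limma-voom, and at 24 against 9 months 0 became 2 with either. At 28 against 15 months 6 became 3 at an adjusted p below 0.05 or without a filter, 2 with the Ms4a1 covariate or limma-voom, and 2 to 7 without single mice. At 28 against 9 months 3 became 2 to 3 without single mice. Over any age 6 became 3 with the Ms4a1 covariate, 2 with limma-voom and 5 to 8 without single mice, and for the slope 5 became 3 at an adjusted p below 0.05 and 2 with limma-voom. The share of all genes called under each setting is not given beside these counts. A shift of the 8 alone and a shift of all genes are therefore not told apart. The causes were not tested.

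With the replicate number as a block, 0 genes were called at 9 against 3 months, 2 at 28 against 24 months and 3 for the slope. The numbers do not pair the mice: over 161 pairs of mice with the same number the median correlation of their deviations was 0.01, and 27 exceeded 0.1.

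Signs turned for single genes. With the Ms4a1 covariate the log2 change at 9 against 3 months was 0.15 for Cd79a, 7.75e-05 for Cd79b and 0.013 for Blk, that of Blk was 0.27 at 24 against 3 months and 0.055 at 28 against 24 months, and at 28 against 3 months the values were 0.24 for Cd79a, 0.060 for Cd79b and 0.32 for Blk. Its slopes were 0.10 for Cd79a, 0.041 for Cd79b and 0.17 for Blk. With limma-voom the change at 24 against 3 months was 0.34 for Ms4a1, 0.12 for Pax5, 0.19 for Bank1 and 0.66 for Blk, that of Cd79a at 28 against 3 months was 0.024, and the slopes were 0.12 for Cd79a, 0.067 for Cd79b, 0.021 for Ms4a1 and 0.23 for Blk. With the smooth muscle covariate Cd79b was at -0.063 at 24 against 3 months. The Ms4a1 covariate and the relations within preparations and ages were chosen after seeing the data.

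Of the relations to Ms4a1, those of endothelial, smooth muscle, macrophage, fat, epithelial and plasma cell genes turned in sign under at least 1 setting. For endothelial genes r was 0.00085 with a prior count of 0.5, 0.015 without the 2 farthest mice, 0.20 and 0.11 within preparations 1 and 3, and 0.051, 0.47 and 0.62 within 3, 24 and 28 months. For smooth muscle genes it was -0.090 and -0.33 within preparations 1 and 2, and -0.31 and -0.24 within 9 and 15 months, but 0.61 within preparation 3 and 0.70 within 24 months. For macrophage genes it was -0.043 within preparation 2, and -0.31 and -0.069 within 3 and 9 months, but 0.49 within preparation 3 and 0.54 and 0.58 within 24 and 28 months. For fat genes it was 0.061 within preparation 3, and 0.072 and 0.18 within 15 and 24 months. For epithelial genes it was 0.041 within preparation 2, and for plasma cell genes -0.20 within 3 months, but 0.86 within 24 months.

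With at least 10 counts required in every mouse, only Cd79a, Cd79b, Ms4a1 and Bank1 had values, so no count over the 8 genes was made. The slope was not refitted without single mice. Fcer2a, with a median of 15 counts, was limited most by depth.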
